A study of Mus musculus with 46 samples.

Results

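Genes in the liver were compared for how widely they varied from mouse to mouse in each diet group, whatever their mean level. The comparison used all 46 mice of the series, each with 1 liver RNA array. Every mouse was a male C57BL6/J animal that began its diet at 2 months of age and was killed at 8 months, after 6 months of treatment. The 11 DR mice were under 40% dietary restriction and were fed once a day in the afternoon. The 12 Rapa mice ate freely from a diet with 14 ppm of microencapsulated rapamycin. The 12 Rapa + DR mice had both treatments, and the 11 AL mice ate the control diet freely. The hour of killing was not given in the sources used here. DR and Rapa + DR mice are called restricted below (n = 23) and Rapa and AL mice unrestricted (n = 23). Each liver was a bulk sample, so fewer cells of a type and less RNA per cell cannot be told apart.

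Inbred mice in the same diet group still differ in when and how much they last ate, in the pulses of growth hormone that reach the liver, in stress hormones and in mild inflammation. Liver genes under the clock, growth hormone, glucocorticoids or cytokines follow these states within hours and are known to vary among animals of one genotype. Rapamycin inhibits the mTOR kinase complex, which couples the supply of nutrients and insulin to the synthesis of protein and lipid.

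Spread was the SD over the mice of a group of the log2 signal, set to a common scale on all arrays. Of the 25697 probes, the test took the 14644 that exceeded background on 1 array or more. A difference in spread is given as the log2 ratio of 2 SDs, so that a negative value means a smaller SD in the treated mice. It was tested in limma on the absolute deviations of the mice from their group mean, with p adjusted over all tested probes and a call at an adjusted p under 0.05. Each mouse was 1 array, so the p-values measure the spread between mice and array error together. The limma difference of the mean absolute deviation is given with its SE for the leading genes.

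The liver as a whole was least variable in DR and most variable in Rapa. The median SD of a probe was 0.127 in DR mice, 0.153 in Rapa mice, 0.138 in Rapa + DR mice and 0.142 in AL mice. The middle 90% of probes had an SD of 0.0582 to 0.358 in DR, 0.0701 to 0.467 in Rapa, 0.0660 to 0.370 in Rapa + DR and 0.0641 to 0.432 in AL. The SD was lower in DR than in AL for 61.9% of probes, with a median log2 ratio of -0.15. It was higher in Rapa than in AL for 59.8% of probes, with a median of 0.12. In Rapa + DR it was lower than in AL for 53.8% of probes, with a median of -0.05. That last median took either sign with the scaling of the arrays, at 0.07 where arrays were only centred and -0.20 after quantile normalization. Over both factors, the SD was lower in restricted than in unrestricted mice for 67.7% of probes (median -0.17) and higher in rapamycin-fed than in other mice for 62.6% (median 0.11). The restriction median also depended on scaling and was nearer to no change with arrays only centred, as given with the male-biased list below.

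These shifts were small beside the differences between mice of a group. The distance of each liver from the other livers of its group, as the root mean square over all tested probes, averaged 0.189 ± 0.0384 in DR (SD, n = 11), 0.239 ± 0.0615 in Rapa (n = 12), 0.196 ± 0.0539 in Rapa + DR (n = 12) and 0.218 ± 0.0582 in AL (n = 11). The 4 ranges overlapped, at 0.139 to 0.254 in DR, 0.165 to 0.339 in Rapa, 0.140 to 0.309 in Rapa + DR and 0.161 to 0.359 in AL. Restricted mice averaged 0.192 and unrestricted mice 0.228, a difference of -0.0358 (two-sided permutation test, p = 0.0259, 0.129 after adjustment over the 5 comparisons). The difference from AL was -0.0284 for DR, 0.0208 for Rapa and -0.0223 for Rapa + DR, each with an adjusted p of 0.414 in the same permutation test. Rapamycin-fed mice averaged 0.217 and the other mice 0.204 (difference 0.0135, adjusted p = 0.414). Mice of a group share their centre, so their distances are not fully independent. No distance comparison passed after adjustment.

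**Figure D1:**
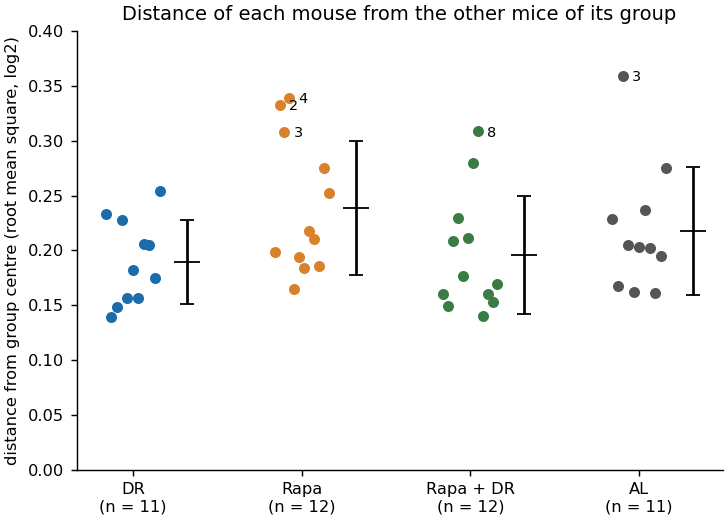
Distance of each liver from the other livers of its group (root mean square over the tested probes, log2 signal) in DR, Rapa, Rapa + DR and AL mice, 1 point per mouse, with bars for the group mean ± SD. The 5 numbered mice lie above 0.3: Rapa 2, 3 and 4, Rapa + DR 8 and AL 3.

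The 5 livers above 0.3 were Rapa 2 (0.333), Rapa 3 (0.309), Rapa 4 (0.339), Rapa + DR 8 (0.309) and AL 3 (0.359). No DR mouse was that far out. Without these 5 mice the median log2 SD ratio against AL was -0.07 for DR, 0.04 for Rapa and -0.07 for Rapa + DR, and -0.11 in restricted against unrestricted mice. Arrays also differed technically between groups. The background level averaged 6.44 in DR, 6.31 in Rapa, 6.23 in Rapa + DR and 6.41 in AL, and the array SD 1.38, 1.28, 1.41 and 1.28 in the same groups. Within Rapa + DR the background level was 6.32 to 6.39 in mice 1 to 6 and 6.07 to 6.19 in mice 7 to 12. In DR it ran from 6.31 to 6.50. With deviations taken only among arrays of like background, the medians against AL were -0.21 for DR, 0.12 for Rapa and -0.07 for Rapa + DR.

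Few single genes differed in spread. Restriction changed the spread of 23 probes of 20 genes, 0.157% of the probes tested, of which 10 had a larger SD (0.0683%) and 13 a smaller one (0.0888%). Rapa + DR against AL gave 14 probes of 13 genes (0.0956%), 6 larger (0.041%) and 8 smaller (0.0546%). DR against AL, Rapa against AL, rapamycin against no rapamycin and the interaction of the factors each gave 0 (0%) in limma. At an unadjusted p under 0.05 the larger and smaller SDs numbered 245 and 857 in DR, 862 and 313 in Rapa, 787 and 269 for rapamycin, and 322 and 458 for the interaction. An F test of the variances, which is sensitive to single outlying mice, called 23 probes in DR, 6 in Rapa and 21 for rapamycin, and was not run for the interaction. The split of the restriction calls moved with the scaling, to 7 larger and 37 smaller after quantile normalization and 5 larger and 10 smaller with arrays centred only. For Rapa + DR the split was 1 larger and 7 smaller after quantile normalization and 3 of each with arrays centred only. Among the called probes the mean was also higher for 10 of 10 with a larger SD under restriction and lower for 10 of 13 with a smaller one. Over all 14644 probes, which share the same mice, the Pearson correlation of the change in mean with the log2 SD ratio was 0.15 for restriction, 0.08 for Rapa + DR and -0.03 for Rapa. Nearly all of these probes were not called, so the correlation does not describe the called ones.

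The lowest adjusted p under restriction belonged to Moxd1, a monooxygenase gene with male-biased expression in mouse liver. Its promoter and that of Cish, a feedback inhibitor that STAT5 induces within hours of a growth hormone pulse, are shown because both hold the STAT5 motif, given in capitals. The sequences are the RefSeq windows of GRCm38.p6 with 250 bases before and 50 after the gene start, chr10:24223267-24223566 for Moxd1 and chr9:107296409-107296708 for Cish, both on the plus strand.
Moxd1: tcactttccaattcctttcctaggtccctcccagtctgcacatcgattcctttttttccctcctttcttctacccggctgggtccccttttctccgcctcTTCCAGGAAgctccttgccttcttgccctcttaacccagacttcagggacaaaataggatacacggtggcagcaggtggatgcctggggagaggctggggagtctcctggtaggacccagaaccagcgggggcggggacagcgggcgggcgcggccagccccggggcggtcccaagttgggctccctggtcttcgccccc
Cish: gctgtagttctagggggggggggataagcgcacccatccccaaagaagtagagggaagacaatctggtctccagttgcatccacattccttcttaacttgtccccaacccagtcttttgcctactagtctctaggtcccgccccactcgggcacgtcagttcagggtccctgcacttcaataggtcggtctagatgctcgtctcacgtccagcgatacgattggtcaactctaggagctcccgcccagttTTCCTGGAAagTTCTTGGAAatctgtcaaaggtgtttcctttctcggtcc
The motif searched was TTCNNNGAA on both strands. It begins at position -150 from the start of Moxd1 and at 2 places of the Cish window from the start on, and 8.3% of 32851 such windows hold it. Of 23 genes called for spread with a window, 2 held it, Moxd1 and Dbp.

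Moxd1 was dark in every restricted liver and ran over a wide range among the others. Its log2 signal was at most 6.42 in DR and 6.36 in Rapa + DR, with none of these 23 livers above background. In Rapa it was 9.92, 10.48, 11.63, 7.06, 8.94, 6.29, 6.22, 7.57, 11.17, 6.83, 9.46 and 10.34 in mice 1 to 12. In AL it was 6.61, 7.43, 6.38, 6.22, 9.28, 10.37, 11.15, 7.54, 6.90, 7.24 and 6.30 in mice 1 to 11. Thus 10 of 12 Rapa and 7 of 11 AL livers were above background, and some unrestricted livers were as dark as the restricted ones. The SD was 0.0616 in DR and 0.0724 in Rapa + DR, against 1.95 in Rapa and 1.72 in AL. The restricted SDs are those of dim signals, and the probe passed the filter through the unrestricted livers alone, so its ratio largely restates that the signal was at background under restriction, as for Cidea below. The log2 SD ratio of restricted against unrestricted mice was -4.77 (mean deviation smaller by 1.54 ± 0.19 SE, limma adjusted p = 3.07e-06), and it was -3.89 with the second probe of the gene (adjusted p = 4.18e-06). Both probes were called under all 12 alternatives that tested them and without each of the 46 mice in turn. Against AL the ratio was -4.80 in DR (adjusted p = 0.0584, not called) and -4.57 in Rapa + DR (adjusted p = 0.0249). The Rapa + DR call was lost without AL 5, AL 6 or AL 7, with adjusted p of 0.0983, 0.176 and 0.18. It was also lost under 3 of 12 processing alternatives (adjusted p up to 0.699).

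Selenbp2, a selenium-binding protein gene that is also male-biased, narrowed at a high level. It measured 9.14 to 10.29 in DR (median 9.69) and 9.54 to 10.87 in Rapa + DR (median 9.81), against 9.69 to 12.46 in Rapa (median 11.70) and 9.88 to 12.91 in AL (median 11.72). The groups overlapped only through the lowest unrestricted mice. The SD was 0.387 in DR and 0.379 in Rapa + DR, against 0.841 in Rapa and 1.16 in AL (log2 ratio -1.40, mean deviation smaller by 0.55 ± 0.11, limma adjusted p = 0.0169). For Rapa + DR against AL the log2 ratio was -1.61 (adjusted p = 0.0298), a call lost without any 1 of 7 mice, the highest adjusted p being 0.0821 without AL 3. That call was also lost under 5 of 13 processing alternatives (adjusted p up to 0.497), and the restriction call under 1 of 13, deviations from the group median (0.338).

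Several mice were low for both genes. In Rapa, mice 6 and 7 had the lowest Moxd1 and the lowest Selenbp2 (9.69 and 10.19). In AL, mice 1, 3, 4 and 11 had Moxd1 at background and Selenbp2 at 10.53, 9.88, 10.73 and 9.90, all under the group median, while mice 5, 6 and 7 had the highest Moxd1, with Selenbp2 at 12.26, 12.91 and 12.64. Of the 30 tested male-biased growth hormone and STAT5 targets, 2 had a smaller SD under restriction (Moxd1 and Selenbp2) and none a larger one, at a background of 0.0888% and 0.0683% of probes. Since Moxd1 was at background in every restricted liver, only Selenbp2 narrowed at a measured level. With the brightest probe per gene, as in all the lists, 11 of 10232 genes were called with a smaller and 6 with a larger SD. The median log2 SD ratio of the list was -0.30, beside -0.16 over all genes, and was -0.16 without AL 11, -0.14 without the 5 far mice (all genes -0.11) and -0.07 with arrays centred only (all genes -0.08). Gstp2, a glutathione transferase, had an SD of 0.411 in DR and 0.264 in Rapa + DR, against 0.651 in Rapa and 0.914 in AL (adjusted p = 0.078, not called). Cish kept a wide spread in all groups, with an SD of 1.08 in DR, 1.24 in Rapa, 0.821 in Rapa + DR and 1.39 in AL.

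Cidea and Cidec, proteins that enlarge lipid droplets and that fatty livers express, were next. Cidea measured 6.09 to 6.31 in DR and 6.12 to 6.46 in Rapa + DR, with none of 23 restricted livers above background. It measured 6.31 to 9.59 in Rapa (median 8.15) and 6.49 to 10.46 in AL (median 7.30), with 9 livers of each group above background. Its SD was 0.0854 in DR and 0.125 in Rapa + DR, against 1.10 in Rapa and 1.18 in AL (log2 ratio -3.42, mean deviation smaller by 0.845 ± 0.14, limma adjusted p = 0.000945). Cidea passed the filter through unrestricted livers alone, so its restricted SDs are those of dim signals. Its ratio largely restates that the signal was at background under restriction. Mouse AL 11 held 62.2% of the AL sum of squares, and without it the AL SD was 0.70. Cidea was called under all 12 alternatives and without each of the 46 mice, which for the same reason says little about its spread.

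Cidec followed at lower signal. Its SD was 0.114 in DR and 0.146 in Rapa + DR, against 0.506 in Rapa and 0.484 in AL (log2 ratio -1.92, mean deviation smaller by 0.325 ± 0.055, adjusted p = 0.00192 in limma). It stayed within 6.29 to 6.68 in DR and 6.29 to 6.79 in Rapa + DR and reached 7.94 in Rapa and 8.12 in AL. Only 2 of 11 DR and 5 of 12 Rapa + DR livers were above background, against 9 of 12 Rapa and 9 of 11 AL livers. The restricted SDs of Cidec are thus largely those of dim signals. The call was lost without the 5 far mice (adjusted p = 0.081) and with deviations from the group median (0.302). The high mice were shared, since Rapa 6 and 7 had the highest Cidea (9.59 and 9.07) and the highest Cidec (7.71 and 7.94) of their group, and AL 11 was the highest AL mouse for both. Those 3 animals were also among the mice low for Moxd1 and Selenbp2. Cidea is in the adipocyte marker list as well. Of its 6 tested genes Cidea alone was called, with the limit given above, at a background of 0.0888% of probes. The mean level of that list was 7.33 to 7.61 in DR and 7.41 to 7.66 in Rapa + DR, against 7.72 to 8.30 in Rapa and 7.54 to 8.41 in AL. Any part of fat cells in these values was not tested.

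Among the acute phase genes, which hepatocytes switch on under inflammatory cytokines, 3 were low in all restricted livers and high in a few unrestricted ones. Saa1 and Saa2 encode serum amyloid A and Lcn2 encodes lipocalin, an iron-scavenging protein of infection. Saa1 (chr7:46742931-46743230, minus strand) and Saa2 (chr7:46751583-46751882, plus strand) are neighbours, and their RefSeq start windows are shown because they are 95.3% identical (287 of 301 aligned columns). RNA of near-identical copies may bind the probe of the other gene.
Saa1: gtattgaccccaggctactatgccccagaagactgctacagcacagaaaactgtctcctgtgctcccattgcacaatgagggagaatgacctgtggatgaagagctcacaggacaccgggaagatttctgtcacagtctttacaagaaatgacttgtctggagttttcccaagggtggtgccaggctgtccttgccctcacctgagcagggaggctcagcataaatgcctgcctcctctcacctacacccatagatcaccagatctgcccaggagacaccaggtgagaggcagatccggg
Saa2: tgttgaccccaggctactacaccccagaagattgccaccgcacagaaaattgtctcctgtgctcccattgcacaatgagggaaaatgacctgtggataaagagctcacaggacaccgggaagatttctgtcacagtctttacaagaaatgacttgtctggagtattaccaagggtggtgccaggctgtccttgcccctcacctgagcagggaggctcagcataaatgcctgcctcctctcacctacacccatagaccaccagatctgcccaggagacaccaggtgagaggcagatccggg
Neither window held a match in capitals to the motifs searched, among them kappa B (in 1.63% of windows) and C/EBP as TTGCNNCAA (2.08%).

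Saa2 measured 6.29 to 6.74 in DR and 6.09 to 6.66 in Rapa + DR, with 1 liver above background in each group. It measured 6.23 to 10.32 in Rapa and 6.27 to 8.61 in AL, with 5 livers above background in each. The medians were close, all between 6.34 in DR and 6.60 in Rapa, and the groups differed in their upper mice. The highest were Rapa 2 (10.32), Rapa 3 (9.63), Rapa 1 (8.39), AL 1 (8.61) and AL 2 (8.38). The SD was 0.134 in DR and 0.141 in Rapa + DR, against 1.38 in Rapa and 0.816 in AL (log2 ratio -3.04, mean deviation smaller by 0.767 ± 0.15, limma adjusted p = 0.0116). The restricted SDs of Saa2 are thus largely those of dim signals.

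The same 5 livers led Saa1 and Lcn2. Saa1 reached 11.09, 10.12 and 8.49 in Rapa 2, 3 and 1 and 8.86 and 8.27 in AL 1 and 2, against maxima of 7.25 in DR and 7.08 in Rapa + DR (log2 SD ratio -2.24, adjusted p = 0.0356). It was above background in 5 of 11 DR, 1 of 12 Rapa + DR, 7 of 12 Rapa and 6 of 11 AL livers. Its restricted SDs thus have the same limit as those of Saa2. Lcn2 reached 13.21, 13.09 and 10.05 in Rapa 2, 3 and 1 and 10.57 and 9.74 in AL 1 and 2, and stayed at or below 8.01 in DR and 7.60 in Rapa + DR. Its SD was 0.322 in DR and 0.244 in Rapa + DR, against 2.27 in Rapa and 1.18 in AL (log2 ratio -2.66, adjusted p = 0.0169). Each of the 3 calls was lost without Rapa 2 alone and without Rapa 3 alone. Without Rapa 2 the adjusted p was 0.0558 for Saa2, 0.0845 for Lcn2 and 0.0926 for Saa1, and without Rapa 3 it was 0.0728, 0.0858 and 0.133. Saa1 also lost its call without any 1 of 7 other mice, and deviations from the group median in place of the mean ended all 3 calls (adjusted p 0.652 for Saa2, 0.614 for Lcn2 and 0.678 for Saa1). So did array background and SD as covariates (0.136, 0.165 and 0.19). Without the 5 far mice, which include Rapa 2 and Rapa 3, Saa2 was still called, and Lcn2 and Saa1 were not (adjusted p 0.0842 and 0.128).

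Of the 26 tested acute phase proteins, these 3 had a smaller SD under restriction and none a larger one, at a background of 0.0888% and 0.0683% of probes. For Saa1 and Saa2 the limit of dim restricted signals applies. The list's median log2 SD ratio was -0.81 in restricted against unrestricted mice, beside -0.16 over all genes, and -0.56 without the 5 far mice. Against AL it was -0.54 for DR, 0.68 for Rapa and -0.23 for Rapa + DR, where the value in Rapa was -0.06 without the far mice and that in Rapa + DR 0.05 with arrays centred only. The neutrophil list held 10 tested genes, of which 1 was above background on every array. Its medians against AL were -0.33 for DR, 1.13 for Rapa and 0.25 for Rapa + DR. In Rapa + DR it was thus opposite in sign to the acute phase list. The mean level of the neutrophil list ran over 6.48 to 6.64 in DR, 6.52 to 7.74 in Rapa, 6.47 to 6.72 in Rapa + DR and 6.49 to 6.86 in AL. Lcn2 belongs to both lists, and the part of neutrophils in these values was not tested.

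Dbp, a transcription factor under direct control of the liver clock, had a narrow spread in restricted mice at a high level. It measured 12.02 to 13.10 in DR (median 12.57) and 10.86 to 12.82 in Rapa + DR (median 12.23). It ran from 7.01 to 11.86 in Rapa (median 10.84) and from 7.27 to 12.91 in AL (median 9.67). The lowest mice were Rapa 12 (7.01), Rapa 4 (7.11), AL 6 (7.27) and AL 11 (7.32), while AL 1, AL 2 and AL 3 (12.91, 11.93 and 12.37) lay within the restricted range. The SD was 0.352 in DR and 0.656 in Rapa + DR, against 1.71 in Rapa and 1.88 in AL (log2 ratio -1.77, mean deviation smaller by 1.09 ± 0.21, limma adjusted p = 0.00942). The call held without each of the 46 mice and under 12 of 13 alternatives, the exception being deviations from the group median (adjusted p = 0.345).

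Other clock output genes had SD ratios on the same side without passing the test. Tef, a partner of Dbp in the same family, had an SD of 0.152 in DR and 0.213 in Rapa + DR, against 0.464 in Rapa and 0.577 in AL (adjusted p = 0.063). Alas1, the first enzyme of heme synthesis, had 0.467 and 0.545 in those restricted groups, against 0.850 in Rapa and 1.15 in AL (adjusted p = 0.078). Of 14 tested clock output genes, Dbp alone was called, at a background of 0.0888% of probes. The list's median log2 SD ratio was -0.47, or -0.21 without AL 3 and -0.24 with arrays centred only. The clock loop had a median of -0.02 over 14 genes and no call, and its median ran from -0.30 with the first component removed to 0.12 with arrays centred only. The difference between these lists was not tested. Arntl, which drives the loop, had a ratio of -1.05 and Per3, a repressor, 0.60, neither called (adjusted p 0.131 and 0.263).

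Lag3, an inhibitory receptor of T cells, had an SD of 0.0630 in DR and 0.123 in Rapa + DR, against 0.294 in Rapa and 0.488 in AL (log2 ratio -2.04, mean deviation smaller by 0.255 ± 0.048, adjusted p = 0.00842 in limma). Every DR liver lay within 6.43 to 6.63, and the AL livers ran from 6.70 to 8.23 without overlapping them. Only 5 of 11 DR and 6 of 12 Rapa + DR livers were above background, against 9 of 12 Rapa and 11 of 11 AL livers. The restricted SDs of Lag3 are thus largely those of dim signals. Lag3 was called under all 12 alternatives and without each mouse, and in DR against AL it shared the lowest adjusted p (log2 ratio -2.95, 0.0584, not called). Me1, the malic enzyme that supplies NADPH for fatty acid synthesis, had an SD of 0.303 in DR and 0.194 in Rapa + DR, against 0.688 in Rapa and 0.599 in AL (log2 ratio -1.34, adjusted p = 0.0416). The Me1 call was less firm, holding under 6 of 13 alternatives and without 24 of the 46 mice, and its second probe was not called (adjusted p = 0.208). Araf, a RAF kinase, and Dnmt3b, a DNA methyltransferase, completed the set at ratios of -1.39 and -1.45 (adjusted p 0.034 and 0.0449), holding under 6 of 13 and 4 of 12 alternatives and without 37 and 15 of the 46 mice. A brighter probe of Araf was not called (limma adjusted p = 0.760).

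**Figure D2:**
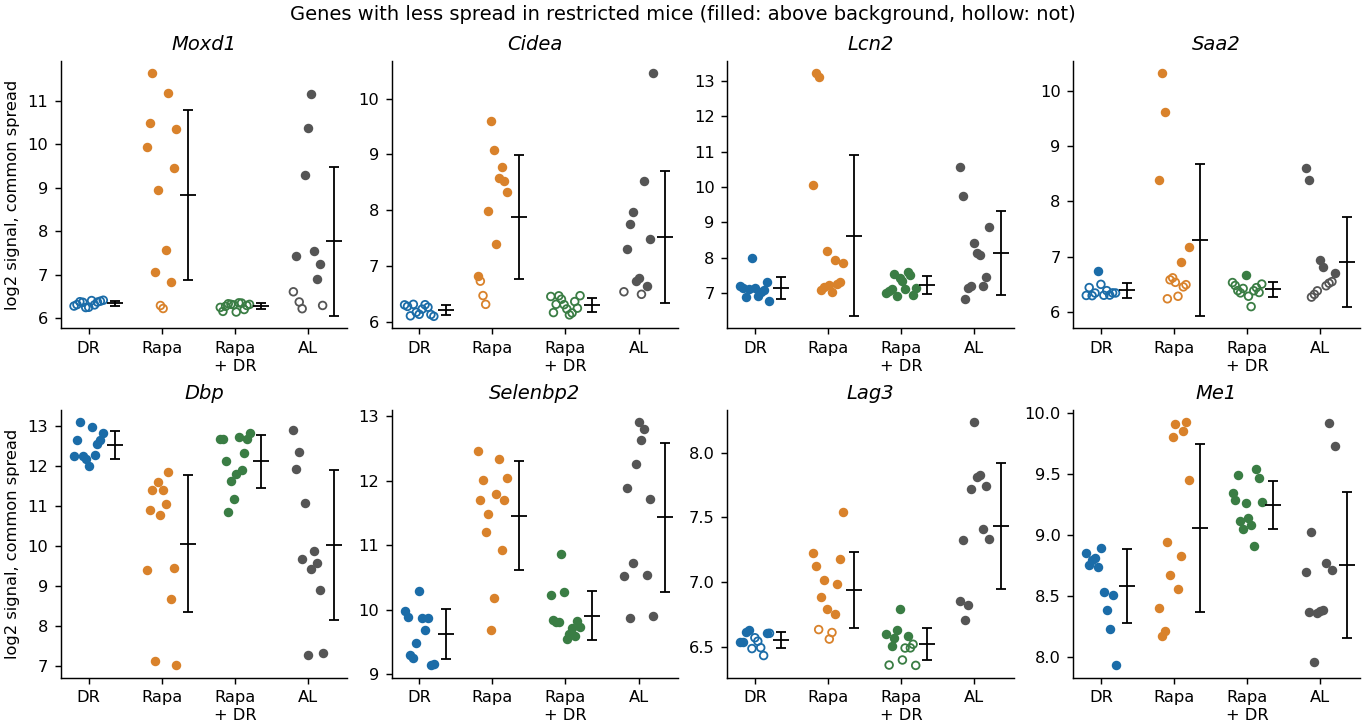
Log2 signal of Moxd1, Cidea, Lcn2, Saa2, Dbp, Selenbp2, Lag3 and Me1 in every liver of the DR, Rapa, Rapa + DR and AL groups, filled where above background and hollow where not, with bars for the mean ± SD. Moxd1 and Cidea lie at background in all restricted livers and spread over several log2 units in Rapa and AL, and Dbp is tight and high in DR.

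Against AL alone, Rapa + DR also narrowed 4 genes that the restriction contrast did not call. Dact2, a regulator of Wnt signaling, had an SD of 0.105 in DR, 0.107 in Rapa, 0.0731 in Rapa + DR and 0.212 in AL. The log2 ratio was -1.54 in Rapa + DR (mean deviation smaller by 0.141 ± 0.024, limma adjusted p = 0.00749), -1.01 in DR (adjusted p = 0.169) and -0.98 in Rapa (adjusted p = 0.159). The Rapa + DR call was lost after quantile normalization (0.0547) and with the F test (0.153). AL livers fell on both sides, with 5 mice at 6.99 to 7.15 and 5 at 7.46 to 7.53, while Rapa + DR livers lay within 7.05 to 7.29. Arpc1a, of the actin-branching Arp complex, Arsg, a lysosomal sulfatase, and Extl1, a glycosyltransferase of heparan sulfate, had ratios of -2.13, -1.47 and -1.76 (adjusted p 0.0417, 0.0417 and 0.049). Each of these 3 was called under 3 of its alternatives, and 2 other probes of Arpc1a were not called (adjusted p 0.132 and 0.289).

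Among the genes with a larger SD under restriction was Fkbp5, a chaperone of the glucocorticoid receptor that glucocorticoids induce and that also binds rapamycin. It measured 7.32 to 8.87 in DR (median 7.93) and 7.33 to 9.57 in Rapa + DR (median 8.36), against 6.61 to 7.41 in Rapa (median 6.88) and 6.56 to 7.34 in AL (median 6.81). The restricted livers lay above nearly all the others and fanned upwards. Rapa + DR 4 was highest at 9.57, and DR 5 led its group at 8.87. The SD was 0.441 in DR and 0.761 in Rapa + DR, against 0.255 in Rapa and 0.193 in AL (log2 ratio 1.46, mean deviation larger by 0.353 ± 0.072, limma adjusted p = 0.0173). Against AL the ratio was 1.98 in Rapa + DR (larger by 0.565 ± 0.1, adjusted p = 0.0114). Mouse AL 11 held 69.6% of the AL sum of squares, and the AL SD without it was 0.0986. Both calls held without each mouse in turn. The restriction call was lost with deviations from the group median (adjusted p = 0.0661) and the Rapa + DR call with the F test (0.0525).

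Of the 17 tested glucocorticoid targets and metallothioneins, Fkbp5 alone was called, at a background of 0.0683% of probes. The list's median ratio was -0.22, or -0.02 without the 5 far mice and -0.06 after quantile normalization. Igfbp1, a fasting-induced binder of insulin-like growth factor, had an SD of 0.115 in DR and 0.440 in Rapa + DR, against 0.123 in Rapa and 0.0870 in AL (adjusted p = 0.383). Rapa + DR 4 was the farthest mouse of its group for 9 of the 17 genes, above the mean in all 9, and DR 5 for 6 of 17 in its group, all above. Fkbp5 is also in the list of mTOR components and regulators, where it was the only call among 21 genes, at the same background.

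Several of the others were at background in unrestricted livers. Pde6c, Cyp39a1 and Cux2 passed the filter through restricted livers alone. Their unrestricted SDs are those of dim signals, so their ratios largely restate that the signal was at background without restriction. Pde6c, a phosphodiesterase subunit known from cone photoreceptors, was above background in 11 of 11 DR and 12 of 12 Rapa + DR livers, against 0 of 12 Rapa and 0 of 11 AL livers. Its SD was 0.246 in DR and 0.275 in Rapa + DR, against 0.111 in Rapa and 0.0652 in AL (log2 ratio 1.52, adjusted p = 0.0356), with a second probe at 1.25 (0.0424). The Pde6c call held under 6 of 12 alternatives and without 32 of the 46 mice, and that of the second probe under 4 and without 24. Cyp39a1, a P450 of bile acid synthesis, had 0.192 in DR and 0.197 in Rapa + DR, against 0.0656 in Rapa and 0.0815 in AL (1.39, adjusted p = 0.0173), and its other probe was not called (0.998). Cux2, a transcription factor that is female-biased in mouse liver, was near background in most mice and reached 7.44 in DR 7, 7.62 in Rapa + DR 7 and 7.48 in Rapa + DR 12. Its SD was 0.362 in DR and 0.432 in Rapa + DR, against 0.114 in Rapa and 0.101 in AL (1.89, adjusted p = 0.0457, called under 7 of 12 alternatives and without 24 of the 46 mice). Among 14 tested female-biased liver genes it was the only call, at a background of 0.0683% of probes.

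Ell3, a transcription elongation factor, and Cyp2g1, a P450 of the olfactory lining, had SD ratios of 1.58 and 1.14 (adjusted p 0.0416 and 0.0432). Neither was firm, with the calls holding under 4 and 3 of 12 alternatives and without 30 and 22 of the 46 mice. The called Cyp2g1 probe was above background in 11 of 11 DR, 11 of 12 Rapa + DR, 2 of 12 Rapa and 1 of 11 AL livers. Its unrestricted SDs are thus largely those of dim signals, and the other Cyp2g1 probe was not called (limma adjusted p = 0.253). Amer2, a membrane anchor of the APC protein, had ratios of 1.18 under restriction and 1.51 in Rapa + DR against AL (adjusted p 0.0173 and 0.0249, called under 8 and 7 of 12 alternatives), and its other probe was not called in either. The called Amer2 probe was above background in 7 of 11 DR, 9 of 12 Rapa + DR, 0 of 12 Rapa and 0 of 11 AL livers. Its ratios thus have the same limit as that of Pde6c. The transcript 2610002M06Rik (1.03, adjusted p = 0.0451) and a probe with no gene symbol (1.23, 0.0288) completed the 10. The first was called under 2 of 12 alternatives and without 20 of the 46 mice, and the second under 8 of 13 and without 41. Amer2, Cyp39a1, the second Pde6c probe and the unnamed probe, and Slc10a6 and Tiam1 below, fell outside the rule for naming genes and were chosen after their values were seen, as were the uncalled Gstp2, Tef, Alas1, Arntl, Per3 and Igfbp1.

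In Rapa + DR against AL, Lgals4, a galectin of epithelial cells, measured 6.97 to 8.18 in Rapa + DR and 6.67 to 7.10 in AL (SD 0.440 and 0.142, log2 ratio 1.63, adjusted p = 0.049). Slc10a6, a carrier of steroid sulfates, was above background in 4 of 12 Rapa + DR and 0 of 11 AL livers (SD 0.242 and 0.0521, ratio 2.22, adjusted p = 0.0313). This probe passed the filter through Rapa + DR livers alone, so its AL SD is that of a dim signal. Tiam1, which activates the GTPase Rac, had SDs of 0.192 and 0.0512 in those groups (1.91, adjusted p = 0.049). Aatk, a kinase, was the one of the 6 probes called with a larger SD here whose mean was lower, at 7.46 to 9.79 in Rapa + DR and 9.85 to 10.68 in AL (SD 0.720 and 0.247, ratio 1.54, adjusted p = 0.049). These calls lay close to the threshold. Other probes of Lgals4 (limma adjusted p 0.255 and 0.693) and Slc10a6 (0.823) were not called. Slc10a6 lost its call without any 1 of 6 mice, with an adjusted p of up to 0.215 without Rapa + DR 4, and Lgals4, Tiam1 and Aatk were called without 9, 5 and 9 of the 23 mice. Under the processing alternatives Slc10a6 was called in 7 of 12, Lgals4 in 4 of 13, Tiam1 in 3 of 12 and Aatk in 2 of 13.

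**Figure D3:**
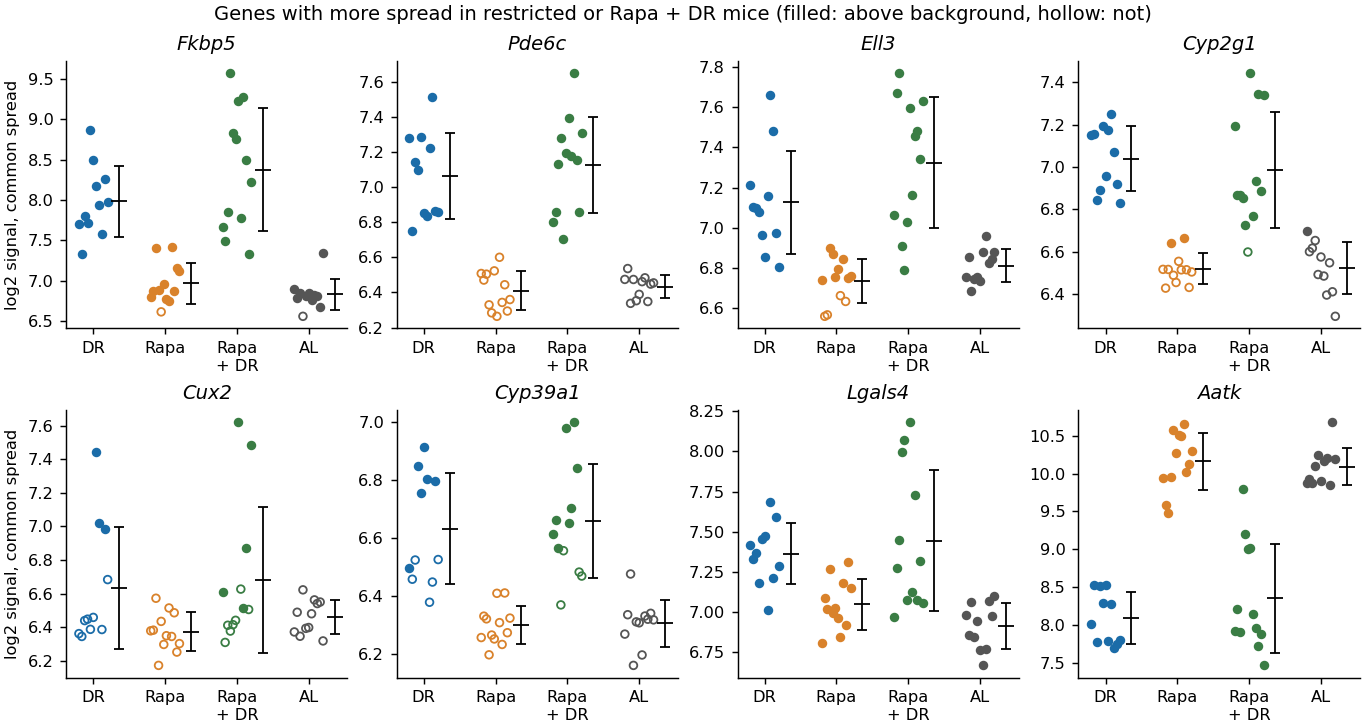
Log2 signal of Fkbp5, Pde6c, Ell3, Cyp2g1, Cux2, Cyp39a1, Lgals4 and Aatk in every liver of the DR, Rapa, Rapa + DR and AL groups, filled where above background and hollow where not, with bars for the mean ± SD. Fkbp5 is tight in Rapa and AL and fans out upwards in both restricted groups. Pde6c lies at background in Rapa and AL and above it in both restricted groups, and Aatk fans out below its AL level in Rapa + DR.

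Rapamycin alone gave no call, although more probes had a larger than a smaller SD. The lowest adjusted p in Rapa against AL was 0.159. Cxcl1, a chemokine that draws neutrophils, measured 7.70 to 11.85 in Rapa (median 8.35), against 7.10 to 8.50 in AL (median 7.47). Rapa 12, 3, 2 and 11 were at 11.85, 11.80, 11.22 and 10.26, above every AL liver, as was Rapa 1 at 9.33. Its SD was 0.501 in DR, 1.64 in Rapa, 0.979 in Rapa + DR and 0.462 in AL (log2 ratio of Rapa 1.83, adjusted p = 0.159). Creld2, an endoplasmic reticulum stress gene, had an SD of 0.993 in Rapa and 0.336 in AL (1.56, adjusted p = 0.159). Mt1, a metallothionein that binds zinc, reached 16.08 and 15.67 in Rapa 2 and 3 and had an SD of 2.57 in Rapa and 0.605 in AL (2.09, adjusted p = 0.171). Pck1, the gate to gluconeogenesis, had an SD of 0.309 in DR, 0.379 in Rapa, 0.597 in Rapa + DR and 0.134 in AL, with a ratio of 1.07 for rapamycin over both feedings (adjusted p = 0.359). Smaller SDs with rapamycin, as in Sult2a8, a bile acid sulfotransferase (-1.12, adjusted p = 0.308), were not called either. The interaction came no nearer, with a lowest adjusted p of 0.779.

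Pooled over the 4 groups, Mt1, Dbp, Actb, Lcn2 and Cyp4a14 had the largest SDs. For Dbp and Lcn2 this came from the unrestricted groups, whose SDs are given above. Cyp4a14, a fatty acid hydroxylase induced by PPAR alpha in fasting, had an SD of 0.733 in DR, 1.46 in Rapa, 0.800 in Rapa + DR and 1.63 in AL (restricted against unrestricted -1.01, adjusted p = 0.179). Actb, the cytoplasmic actin often taken as a steady reference, had an SD of 1.32 in DR, 1.53 in Rapa, 1.32 in Rapa + DR and 1.01 in AL, and was as low as 7.85, 7.62, 7.71 and 8.43 in single mice of these groups. Hspa8, a constitutive chaperone, had 1.05, 1.18, 0.681 and 1.18 in the same order. Actb weighed most on the low side of the first principal component over all 46 mice (-0.0876), and Hspa8 lay on that side too (-0.0503). Scores on that component are set beside the array SD below, so these SDs may hold array-wide differences, which was not tested. Rgs16, a feeding-responsive brake on G protein signaling, had 0.955 in DR, 1.15 in Rapa, 1.39 in Rapa + DR and 1.12 in AL. Hamp2, a hepcidin gene, had 1.13 in DR, 0.813 in Rapa, 1.44 in Rapa + DR and 1.23 in AL. Of the clock output genes, 8 of 14 were among the most variable 5% of genes by pooled SD, as were 18 of 26 acute phase proteins, 23 of 30 male-biased growth hormone and STAT5 targets and 11 of 17 glucocorticoid targets and metallothioneins. Other lists were also well above 5%, with 20 of 41 cytosolic ribosomal proteins, 10 of 20 drug-metabolizing P450s and 10 of 21 fatty acid and triglyceride synthesis genes. For glycolysis and the proteasome the count was 0 of 12 and 0 of 29, in small lists.

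Cyp2b9, a female-biased P450, had another order of SDs. Its SD was 1.17 in DR, 0.252 in Rapa, 1.26 in Rapa + DR and 1.00 in AL. The AL value came from AL 11, at 9.85 with 81.0% of the sum of squares, and without it the AL SD was 0.349. Levels ran from 6.64 to 10.29 in DR and from 6.73 to 11.34 in Rapa + DR, against 6.35 to 7.33 in Rapa and 6.35 to 7.26 in the other 10 AL mice. The ratio of 0.74 under restriction was not called (adjusted p = 0.161).

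For several pathways the median SD ratio was below that of all genes in DR and above it in Rapa. Medians of log2 SD ratios are given here as descriptions, beside those over all genes against AL of -0.15 for DR, 0.13 for Rapa and -0.05 for Rapa + DR. Cytosolic ribosomal proteins (41 genes) had -0.41 for DR, 0.41 for Rapa and -0.33 for Rapa + DR, and the respiratory chain and ATP synthase (50 genes) -0.47, 0.46 and -0.32. ER chaperones and unfolded protein response genes (18) had -0.32, 0.39 and -0.38. No gene of these 3 lists was called. The ER median in DR was 0.02 with arrays centred only. Each list leaned on single mice. Without AL 3 the respiratory value was -0.11 in DR and 0.03 in Rapa + DR and the ribosomal value -0.15 in DR and -0.08 in Rapa + DR, beside -0.08 over all genes in DR. The ribosomal value in Rapa was 0.10 and the respiratory value 0.15 without Rapa 4, and the ER value in Rapa was 0.19 without Rapa 3. The all-gene median in Rapa + DR was 0.03 without AL 3. Clock output (14) had -0.57 for DR, -0.15 for Rapa and -0.65 for Rapa + DR, with -0.29 for DR, 0.19 for Rapa and -0.27 for Rapa + DR without AL 3, and drug-metabolizing P450s (20) had -0.64, -0.34 and -0.22. The P450 values depended on scaling, at -0.10 in DR and 0.35 in Rapa with arrays centred only, and on single mice, Rapa + DR having 0.04 without AL 11 and -0.81 without Rapa + DR 8. Few lists had a positive median in DR. Immediate early genes (16), which respond to stimulation within minutes, had 0.19 and cell cycle genes (16) 0.15, with -0.03 and -0.01 after quantile normalization. Cell cycle genes had 0.58 in Rapa + DR, or 0.20 without Rapa + DR 10.

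**Figure D4:**
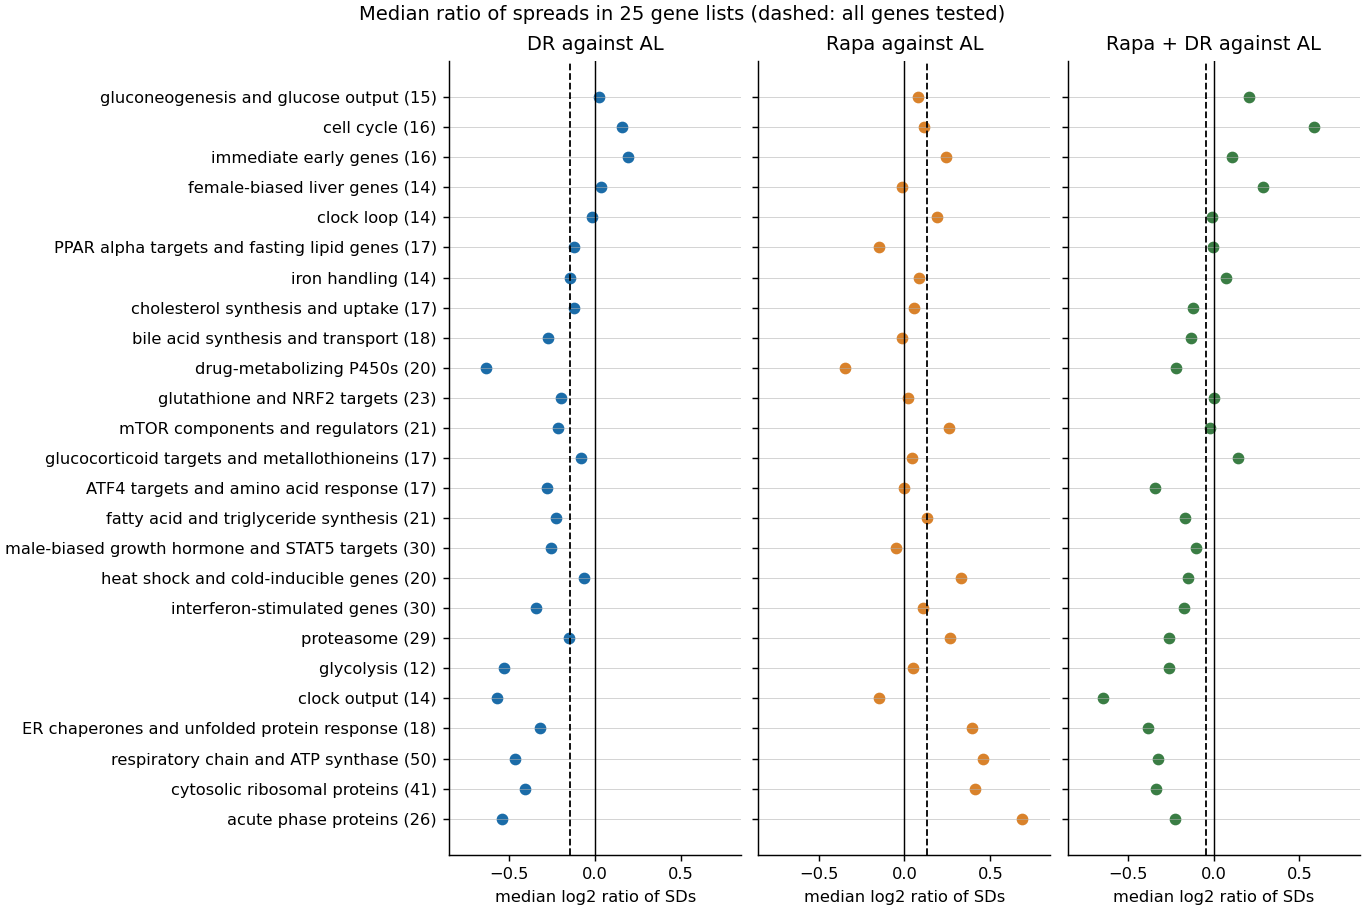
Median log2 SD ratio of 25 gene lists in DR, Rapa and Rapa + DR against AL, 1 panel per comparison, with the median of all genes tested as a dashed line (-0.15, 0.13 and -0.05). Acute phase proteins lie farthest above the line in Rapa (0.68) and drug-metabolizing P450s farthest below it in DR (-0.64).

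Single animals carried much of the leading components in AL, and less in the other groups. The first principal component of the deviations held between 35.3% (AL) and 37.5% (DR) of the variance of a group. In DR the farthest mouse held between 27.0% and 29.0% of each of the first 3 components, and in Rapa + DR 31.5% of the first. In AL, mouse 3 held 56.3% of the first component, with Dbp, Cyp2a5, Hspa8 and Cyp3a11 high and Elovl3 low, and AL 11 held 49.5% of the second, with Cyp4a14, Hamp2, Cyp2b9 and Cidea high and Selenbp2, Cish, Hsd3b5 and Moxd1 low. In Rapa, mouse 2 held 30.6% of the first, with Lcn2, Mt1, Saa1, Hp, Orm2 and Saa2 high, and Rapa 3 held 40.1% of the second, with Lcn2, Hp, Itih4 and Trf high and Cidea and G0s2 low. In Rapa + DR, mouse 8 held 42.9% of the second, with the interferon-induced GTPases Igtp and Irgm2 high.

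Lists of genes moved as blocks in those animals, whose arrays also differed in SD. On the first component over all 46 mice, Rapa + DR 7 scored 26.7, Rapa 11 26.1 and AL 11 25.2. Their array SDs were 1.58, 1.54 and 1.52. Rapa 2 scored -26.3, Rapa + DR 8 -20.9 and DR 11 -18.9, with array SDs of 1.13, 1.10 and 1.18. Some arrays did not follow, as Rapa 8 at 1.79 with an SD of 1.12. Any part of array-wide differences in the values of single mice was not tested. The mean deviation of acute phase proteins from the group mean was 1.25 in Rapa 2 and 1.26 in Rapa 3, while the highest mouse reached 0.16 in DR (DR 5), 0.18 in Rapa + DR (Rapa + DR 8) and 0.56 in AL (AL 1). The male-biased growth hormone and STAT5 targets had their lowest mean deviation in 1 mouse of each group, at -0.59 in DR 10, -0.72 in Rapa 6, -0.61 in Rapa + DR 12 and -0.85 in AL 11. Those mice were the farthest of their group for 11, 10, 7 and 16 of the 30 genes, below the mean each time. The respiratory chain and ATP synthase genes were low in Rapa 4 (-0.80) and AL 3 (-0.55), which were the farthest mouse for 31 and 30 of the 50 genes. Cytosolic ribosomal proteins were low in the same 2 mice, at -0.86 and -0.61. ER chaperones and unfolded protein response genes were high in Rapa 3 (0.67), and drug-metabolizing P450s in Rapa + DR 8 (0.57), where 13 of 20 had their farthest mouse, all above the mean.

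**Figure D5:**
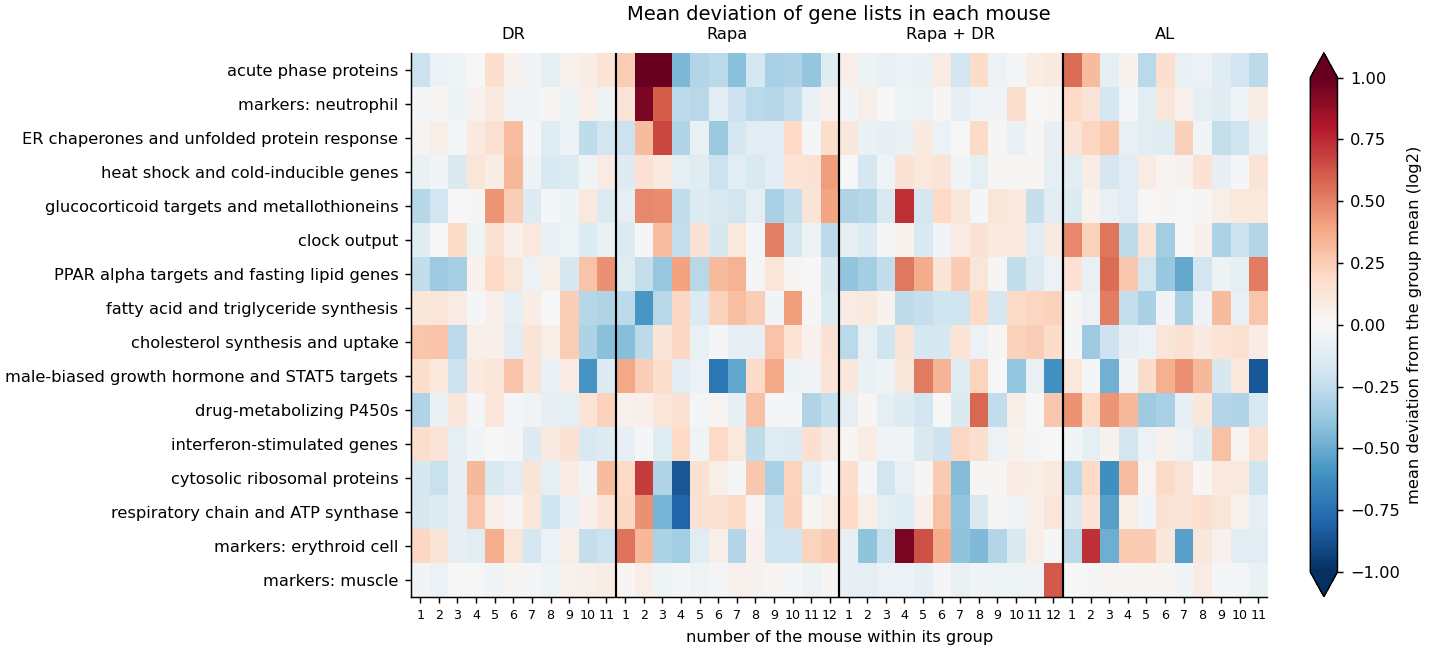
Mean deviation from the group mean (log2, colour limited to 1 either way) of 16 gene lists in each of the 46 livers, ordered DR, Rapa, Rapa + DR and AL. Acute phase proteins stand out in Rapa 2 and Rapa 3, the respiratory chain and ribosomal lists are low in Rapa 4 and AL 3, and the male-biased list is lowest in AL 11.

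Markers of muscle also varied between livers. The muscle list was at 6.36 to 7.07 in Rapa + DR, against 6.35 to 6.50 in AL, with 8 of its 10 genes highest of the Rapa + DR mice in Rapa + DR 12. Its median log2 SD ratio in Rapa + DR was 1.05, or 0.03 without that mouse. Hepatocyte markers were high in all livers, 10 of 12 being above background on every array. The muscle, neutrophil and erythroid values in single livers belong to those livers, and their part in the spread of other genes was not tested.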

How the data were processed

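Liver RNA of 46 mice was labeled and read on 1 Illumina Mouse Ref8 v2.0 beadchip array each. The authors read them with Genome Studio, took log2 signals and z-normalized each array, and these scores were deposited. The 92 columns of another table, signals and detection p-values with no group, were not used. Each array's SD was recovered from the fixed signal step of 0.1, and scores were multiplied by the mean SD (1.337) and raised by the mean log2 level (7.046). No background was subtracted, so spread in dim genes is understated, and the number of arrays limits precision. A probe was above background past the upper 0.02 tail of dim signals. This left 14644 probes and 10232 genes, and for gene lists the brightest probe stood for a gene.

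Absolute deviations from the group mean, multiplied by the square root of n/(n - 1), were fitted by group in limma 3.58.1 (R 4.3.3) with Benjamini-Hochberg adjustment. For the factor contrasts, variances were averaged over the groups of each side. The interaction was the rapamycin effect in restricted mice minus that in unrestricted mice. Distances used 100000 permutations. The steps were tested on simulated data. Of the probes, 23978 carry 1 gene symbol and 1719 none. Motifs and sequences came from RefSeq (GRCm38.p6). Genes were named where called and above background throughout a group, up to 10 each way, or, with fewer than 3 called, by lowest p. The most variable genes and called list members, or the most variable member of a list with none, were added. The members and the 36 lists were chosen with earlier results of these data known. Alternatives were other scalings, filters, deviations and tests, covariates, a replicate block and leaving out mice. Leaving out the 5 far mice and grouping arrays by background were added after seeing the data.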

Additional observations from a re-analysis of the deposited data

How the results depend on the processing

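For single genes no alternative turned a direction, and 2389 values stayed on their side of the threshold, 539 lost a call and 28 gained one. The counts of called probes moved more. For restricted against unrestricted mice (23 probes) they were 44 after quantile normalization, 15 with arrays centred only, 3 with probes above background on every array, 4 with deviations from the group median, 75 with square roots of deviations, 243 with the F test, 14 with no moderation, 36 without the 5 far mice (16 of the 23 shared) and 41 within background sets (18 shared). For Rapa + DR against AL (14) they were 8 after quantile normalization, 6 with arrays centred only, 6 with no filter, 2 with probes above background on every array, 2 with the group median, 39 with the F test, 6 with no moderation and 4 with array background and SD as covariates. For DR against AL (0) they were 4 after quantile normalization, 8 with square roots, 23 with the F test, 7 with the first component removed, 2 with the replicate block and 6 without the far mice. For Rapa against AL (0) they were 2 after quantile normalization, 6 with the F test, 3 with the component removed and 1 within background sets. Rapamycin gave 21 with the F test. The cause of these moves was not tested.

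Leaving out 1 mouse gave 12 (without Rapa 3) to 68 (without Rapa + DR 8) called probes for restriction, 3 (without AL 6) to 27 (without Rapa + DR 8) for Rapa + DR, 0 to 6 for DR (6 without AL 11), 0 to 6 for Rapa (6 without Rapa 9), 0 to 1 for rapamycin and 0 for the interaction. Differences in distance then ran from -0.0354 to -0.0112 in DR, 0.0102 to 0.0380 in Rapa, -0.0332 to -0.00513 in Rapa + DR, -0.0412 to -0.0272 for restriction and 0.00803 to 0.0221 for rapamycin. The distance difference for restriction passed with the covariates (-0.0350, adjusted p = 0.0281), with the first component removed (-0.0366, adjusted p = 0.0244) and without Rapa + DR 8 (adjusted p = 0.0415), all by permutation test. That for rapamycin turned to -0.00116 with the covariates (adjusted p = 0.927).

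The replicate numbers did not pair the mice. Over 67 pairs of mice with the same number the correlation of deviations ran from -0.60 to 0.66 (median 0.04), and 4 of 46 mice correlated best with their own number. With the number as a block the counts were 22 for restriction, 11 for Rapa + DR, 2 for DR and 0 for Rapa, rapamycin and the interaction.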

Other observations

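Single livers carried signals that belonged to no comparison. Acta1, the skeletal muscle actin, stood at 8.24 in Rapa + DR 12, which held 89.6% of the sum of squares of its group. Igtp, an interferon-induced GTPase, had an SD of 0.344 in DR, 0.474 in Rapa, 0.822 in Rapa + DR and 0.444 in AL, and Rapa + DR 8 held 56.5% of the Rapa + DR value. The interferon-stimulated genes as a list had their farthest Rapa + DR mouse in Rapa + DR 7 for 12 of 30 genes, 10 of them above the mean, and their farthest AL mouse in AL 9 for 8, all above. All 4 tested erythroid genes had Rapa + DR 4 as the highest mouse of the Rapa + DR group, while the highest mean of that list over the series was in an AL mouse. The heat shock and cold-inducible genes had Rapa 12 as the farthest mouse for 9 of 20 genes, all above the mean, and DR 6 for 8, of which 7 were above. PPAR alpha targets and fasting lipid genes had DR 11 as the farthest mouse for 9 of 17, of which 8 were above. Kupffer cell and macrophage markers had DR 11 as the farthest mouse of its group for 9 of 13 genes and Rapa + DR 8 for 8, below the mean each time. Those mice also had the lowest array SD of their groups, at 1.18 and 1.10. G6pc, the last step of glucose release, had an SD of 0.604 in DR, 0.557 in Rapa, 1.07 in Rapa + DR and 0.587 in AL. Cox6b1, a cytochrome oxidase subunit, had 0.370, 0.872, 0.478 and 0.424 in the same groups, and Rapa 4 held 37.5% of the Rapa value.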
